A study of Tigriopus californicus with 9 samples.

Results

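Hybrids with San Diego mothers were compared with the San Diego population of the splash-pool copepod Tigriopus californicus. The SDf x SCNm hybrids descended from virgin San Diego (SD) females mated to Santa Cruz (SCN) males and were the third hybrid generation, reached by letting the first and second generations mate among themselves. The SD animals were the unhybridised maternal stock. Libraries were chosen by their titles, which gave SDf x SCNm replicates 1 and 2 and SD replicates 1 to 3, or 5 of the 9 libraries of the series. All 13758 features were compared, each a pair of contigs, 1 from SD and 1 from SCN, or a gene of the mitochondrial genome. Every library held polyA RNA of 400 to 500 whole copepods with all developmental stages pooled, taken after 2 h in a bath at 20 °C, and no group received any other treatment. SD stock was kept in 400 mL beakers at 20 °C with 12 h of light a day. The same culture volume and hours of light are recorded for SDf x SCNm. The remaining 4 libraries came from the SCN population (n = 2) and from the opposite cross, SCNf x SDm (n = 2), and were used for the shared estimate of spread and for placing values. The titles of the SCNf x SDm libraries and their source labels name opposite crosses, and the titles were used. Whether replicate pools were drawn from separate cultures is not stated in the labels, and p-values measure only how these pools spread, which may be technical.

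Mitochondria pass from mother to offspring, so SDf x SCNm hybrids and SD animals carry the same mitochondrial genome on different nuclear backgrounds. After the first hybrid generation, recombination breaks up parental combinations of nuclear alleles, and descendants can carry SCN nuclear alleles beside SD mitochondria. Most subunits of the respiratory chain, and all proteins of the mitochondrial ribosome and of the machinery that copies and transcribes mitochondrial DNA, are encoded in the nucleus. Some core subunits of complexes I, III, IV and V are encoded in the mitochondrion, and complex II is wholly nuclear. In Tigriopus, later-generation hybrids between populations are known for reduced fitness and for lower mitochondrial ATP production.

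Depth differed strongly between libraries, with 5.02 and 15.5 M reads recovered in SDf x SCNm replicates 1 and 2, against 17.4, 5.45 and 1.0 M in SD replicates 1, 2 and 3. SD replicate 3 had 0 reads in 7.55% of features, and the other 4 libraries in 0.0218% to 0.669%. The median feature differed by 0.34 on the log2(RPKM + 1) scale, without regard to sign, between the hybrid replicates, by 0.37 to 0.57 between pairs of SD replicates and by 0.39 to 0.58 between a hybrid and an SD library. The first principal component of the 5 libraries held 47.6% of the variance and placed the hybrids at 52.6 and 43.5 and SD replicates 1, 2 and 3 at -21.6, -16.1 and -58.4. SDf x SCNm replicates 1 and 2 were sequenced in runs 4 and 5, and SD replicates 1, 2 and 3 in runs 1, 2 and 3. No run held both groups, so run and group cannot be told apart in any result given here, and no within-run value can be had.

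The hybrids differed from SD mostly by higher values, and few features passed the threshold. Differences are of mean log2(RPKM + 1), where RPKM is the read number scaled to contig length and to the library's total, and a positive difference means higher in SDf x SCNm. With limma, fitted to all 9 libraries, 15 features rose (0.109%) and 1 fell (0.00727%) at a Benjamini-Hochberg adjusted p under 0.05. At an unadjusted p under 0.05, 1091 features were higher (7.93%) and 373 lower (2.71%). Hybrid and SD libraries did not overlap in 2789 features that were higher in hybrids (20.3%) and in 2228 that were lower (16.2%). Over all features, 52.0% of differences lay above 0, the median was 0.03, the 5th and 95th percentiles were -0.81 and 1.36, and the median standard error was 0.44. Quantile normalization moved the median of all features to -0.09, and list medians under it are read against that value. The number past the threshold depended on single libraries. It was 1 without either SDf x SCNm replicate 1 or replicate 2. Leaving out SD replicate 1 gave 7, leaving out SD replicate 2 gave 3 and again 3 when SD replicate 3 was left out. It was 4 without either SCNf x SDm library, 155 without SCN replicate 1 and 153 without SCN replicate 2, although SCN and SCNf x SDm enter the comparison through the estimate of spread alone. Fitted to the 5 hybrid and SD libraries alone, 22 features rose and 2 fell, with 12 of the 16 features among them. Those lost there included the cuticle contigs Contig979cap and Contig977cap described below (limma adjusted p = 0.0515 and 0.062). Without SD replicate 3 and SCN replicate 2, the shallow libraries that shared run 3, 184 rose (1.34%) and 4 fell (0.0291%), and all 16 features were among them. On simulated data this comparison called 4% of features changed by log2 1, 32% of those changed by 2, 76% by 3 and 98% by 4, so most changes under 4-fold would be missed at this depth and replication.

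Among named features past the threshold, the largest log2 difference was that of Contig4724, annotated as pyridine nucleotide-disulfide oxidoreductase domain-containing protein 2, of a family of flavin-dependent redox enzymes. It had 223 and 238 RPKM in SDf x SCNm, against 9.24, 18.1 and 10.5 RPKM in SD. Every hybrid library lay far above every SD library, and the means were 230.3 ± 10.9 RPKM (s.d., n = 2) in hybrids and 12.6 ± 4.79 RPKM (n = 3) in SD. The log2 difference was 4.14 (SE 0.39, limma adjusted p = 0.00356), or 17.6-fold. The same contig had 355 and 455 RPKM in SCNf x SDm and 310.1 and 532 RPKM in SCN, so that SD stood alone at the low end.

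A pair of genes of the exoskeleton also rose. Larval cuticle protein lcp-17 (Contig977cap), a structural protein of the chitinous cuticle, had 339 and 328 RPKM in SDf x SCNm, against 36.1, 45.6 and 11.6 RPKM in SD, with a log2 difference of 3.58 (SE 0.55, limma adjusted p = 0.0492). Cuticle protein 7 (Contig979cap) had 242 and 176 RPKM in SDf x SCNm, against 39.2, 16.2 and 15.0 RPKM in SD, with a log2 difference of 3.22 (SE 0.43, limma adjusted p = 0.0347). Neither gene's libraries overlapped between the groups. Few reads lay behind some SD values, with 78, 7 and 1 reads of Contig979cap and 150, 61 and 2 of lcp-17 in SD replicates 1, 2 and 3. The deposited RPKM hold an added constant, which is part of the lower SD values. In both genes the hybrids also lay above SCN, which had 90.9 and 45.6 RPKM of lcp-17 and 90.6 and 78.2 RPKM of Contig979cap.

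A ubiquitin contig (Contig1785, 108 bases), which encodes the small protein that is attached to others to mark them for breakdown, was the 4th named rise. It had 341 and 283 RPKM in SDf x SCNm, against 48.0, 44.9 and 74.8 RPKM in SD, and the log2 difference was 2.49 (SE 0.36, limma adjusted p = 0.0457), or 5.62-fold. Hybrids were again above every SD library, but below SCN, at 902 and 641 RPKM. Ubiquitin genes hold near-identical repeats and copies, so reads may be split between this contig and others.

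The remaining 12 features past the threshold have no informative protein name. Contig42697 had the largest rise of all, with 472 and 419 RPKM in SDf x SCNm, against 9.24, 9.23 and 5.45 RPKM in SD (log2 difference 5.67, SE 0.51, limma adjusted p = 0.00356). Contig25883 had 212 and 121 RPKM in SDf x SCNm, against 7.02, 6.49 and 4.64 RPKM in SD (log2 difference 4.53, SE 0.40, limma adjusted p = 0.00356). Part of these low SD values is a constant that the deposited RPKM hold, since Contig25883 was covered by only 11, 3 and 0 reads in SD replicates 1, 2 and 3, against 250 and 433 reads in SDf x SCNm. The only fall was that of Contig5537, a conserved hypothetical protein, with 54.5 and 53.1 RPKM in SDf x SCNm, against 242, 339.6 and 429 RPKM in SD (log2 difference -2.59, SE 0.39, limma adjusted p = 0.0457). SCN stood near the hybrids here too, at 40.8 and 79.0 RPKM, and SCNf x SDm at 109.9 and 108 RPKM.

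**Figure D1:**
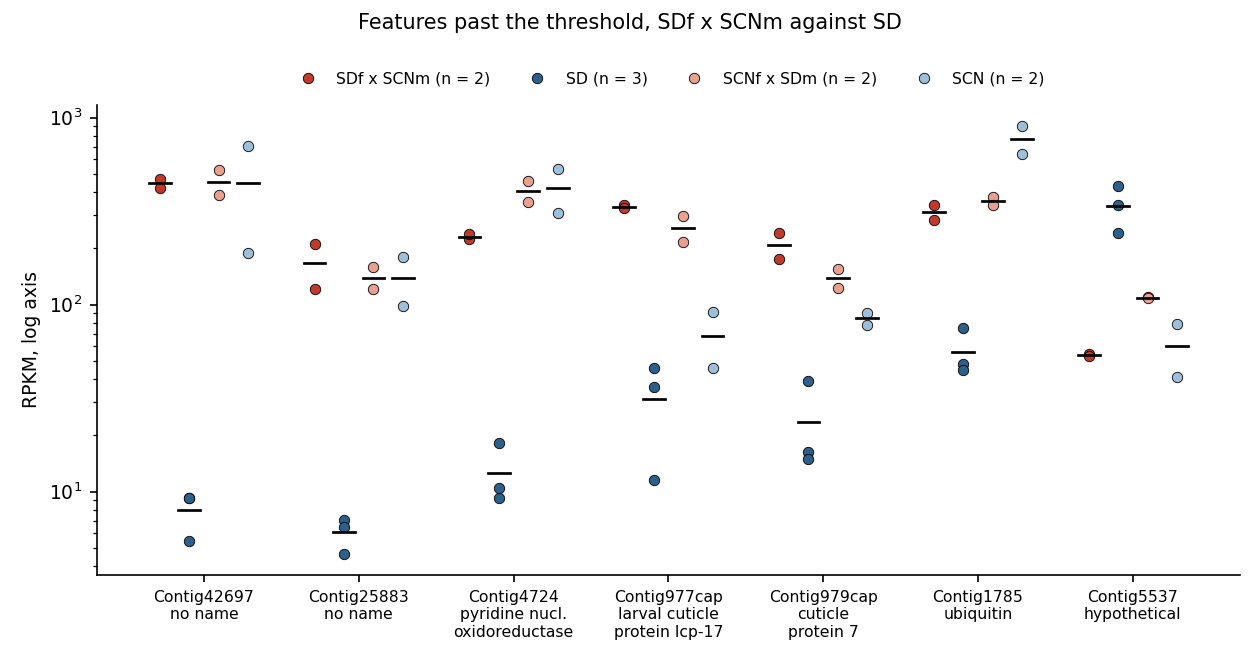
RPKM on a log axis of 7 features past the threshold in each of the 9 libraries; points are libraries and bars are group means, with SDf x SCNm (n = 2) and SD (n = 3) at the left of each set and SCNf x SDm (n = 2) and SCN (n = 2) at the right. SD stands apart at the low end for Contig42697, Contig25883, Contig4724 and Contig1785 and at the high end for Contig5537, while both cuticle contigs were highest in SDf x SCNm.

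Set against the paternal population, 14 of the 15 features that rose had every SCN library above every SD library. These features were called on the same SD libraries, which favours such an order, and its share over all features is not given here. SDf x SCNm means lay between the SD and SCN means in 5 of them and above both in 10, the hybrid range overlapped the SCN range in 8, and 4 had both hybrid libraries above every SD and SCN library. None of the 15 passed the threshold when SDf x SCNm was compared with SCN, where limma called 2 features in all (0.0145%) and 1292 had an unadjusted p under 0.05 (9.39%). The contigs that rose were short, with a median of 263 bases, and all 15 were shorter than the median feature of 840 bases. The sources used here do not give the population to whose contigs each library was aligned.

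Some of these calls were firmer than others. Contig25883 passed in 22 of 23 alternative fits and Contig42697 and Contig4724 in 21 each, and these lost significance only where an SDf x SCNm library was left out. Contig979cap passed in 14, Contig1785 in 12, Contig5537 in 11 and lcp-17 in 8. Each of these was lost when any single hybrid library of either cross, SD replicate 2 or SD replicate 3 was left out, and Contig1785, Contig5537 and lcp-17 were also lost without SD replicate 1. The direction held for all 7 in every alternative.

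Named features next to the threshold did not pass. Lin-11 (Contig36372), named for a developmental transcription factor of Caenorhabditis elegans, had 25.4 and 29.7 RPKM in SDf x SCNm, against 3.05, 6.59 and 3.73 RPKM in SD (log2 difference 2.44, limma adjusted p = 0.0534). Histone H2B (Contig15437), a core protein of chromatin from a family of near-identical copies, had 149.5 and 124 RPKM in SDf x SCNm, against 16.5, 20.3 and 36.4 RPKM in SD (log2 difference 2.51, limma adjusted p = 0.0534). Of the 113 informatively named features with an unadjusted p under 0.005, 102 were higher in hybrids and 11 lower, and over all features 274 of 292 at this p were higher (1.99% of features, against 0.131% lower). None of the named features on the low side passed.

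The lowest log2 difference was that of a contig annotated as lethal(2) essential for life (Contig4411), which in Drosophila is a member of the small heat shock protein family. It had 53.3 and 39.6 RPKM in SDf x SCNm, against 378, 403 and 743 RPKM in SD. The groups did not overlap, and the log2 difference was -3.37 (SE 0.58, limma adjusted p = 0.0805). Its adjusted p was 0.0196 without SCN replicate 1 and 0.0199 without SCN replicate 2. SCN stood at 49.4 and 173 RPKM and SCNf x SDm at 59.7 and 142 RPKM, so SD was the high group.

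Of the other low named features, the E3 ubiquitin ligase siah1 (Contig1903) had 149.8 and 123 RPKM in SDf x SCNm, against 490.2, 332 and 633 RPKM in SD (log2 difference -1.78, limma adjusted p = 0.14). The sterol regulatory element-binding protein cleavage-activating protein (Contig2539), a sterol sensor, had 19.5 and 23.0 RPKM in SDf x SCNm, against 56.9, 53.3 and 68.1 RPKM in SD (log2 difference -1.44, limma adjusted p = 0.166). The second largest subunit of RNA polymerase II (Contig1350cap) had 48.1 and 53.6 RPKM in SDf x SCNm, against 127, 132 and 135 RPKM in SD (log2 difference -1.35, limma adjusted p = 0.184). Protein mef2bnb homolog (Contig44041) had a log2 difference of -1.59 (limma adjusted p = 0.186). None of these genes overlapped between the groups, and in SCN they stood nearer to the hybrids than to SD, for example 48.4 and 65.1 RPKM for the polymerase subunit.

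Genes of cuticle and chitin stood furthest above the other features among the 31 lists examined. Copepods replace a chitin-based exoskeleton at each moult, when cuticle proteins are laid down and chitinases digest the old layer. Of 80 members, 68 lay above 0, the median log2 difference was 1.31 against 0.03 for all features, and 2 rose, the contigs given above. A total of 40 members had an unadjusted p under 0.05, all higher in hybrids, and 47 were without overlap on the high side and 2 on the low side. List counts of this kind are read beside the shares over all features. Those were 7.93% higher at that p, and 20.3% and 16.2% without overlap on the high and low sides. The list's median level of log2(RPKM + 1) was 5.86 and 5.92 in SDf x SCNm, against 5.00, 4.36 and 4.16 in SD. The SD median was lowest in replicate 3, the shallowest library. The list's median level was 5.85 and 6.29 in SCNf x SDm, and 5.96 and 3.94 in SCN replicates 1 and 2, so SCN replicate 1 stood at the level of the hybrids and the shallow SCN replicate 2 below all 3 SD libraries. In bulk libraries, fewer cells or animals of a kind and less RNA per cell cannot be told apart, which for this list includes the share of animals near a moult.

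Structural cuticle proteins, with 34 members, had a median log2 difference of 1.89 and median levels of 6.95 and 7.24 in SDf x SCNm, against 5.15, 5.44 and 3.60 in SD. Peritrophins and obstructors, which are chitin-binding proteins of the gut lining and of the cuticle matrix, had a median of 1.08 over 17 members, 14 of them without overlap on the high side. Obstructor (Contig19526), an example chosen after its values were seen, had 180.4 and 174 RPKM in SDf x SCNm, against 32.4, 15.4 and 8.14 RPKM in SD (log2 difference 3.38, limma adjusted p = 0.114). It was covered by 59, 6 and 0 reads in SD replicates 1, 2 and 3, so its value in SD replicate 3 is the added constant alone. Chitinases, also 17 members, had a median of 1.07, and the 10 chitin synthases and deacetylases 0.52, or 0.25 without SDf x SCNm replicate 2. Near-identical family members may share reads here. Without SD replicate 3 and SCN replicate 2, 15 members of the whole list rose and the list median was 1.21, and without SCN replicate 2 alone 11 rose, in a fit that called 1.09% of all features higher.

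**Figure D2:**
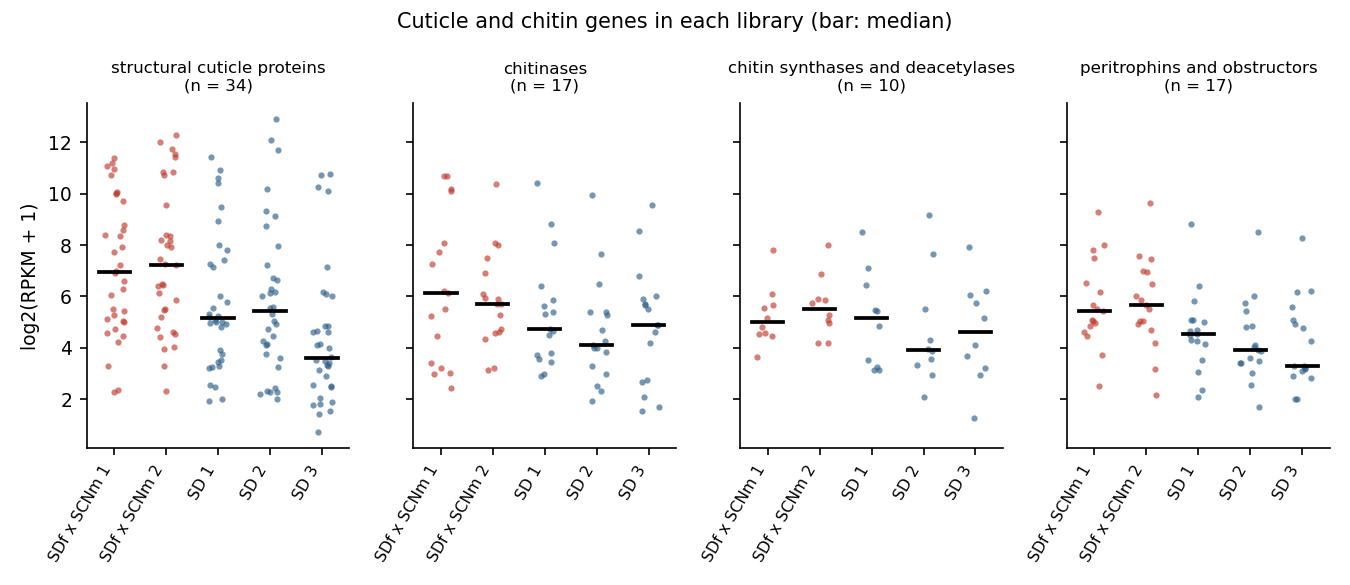
Levels of cuticle and chitin genes as log2(RPKM + 1) in the 2 SDf x SCNm libraries (left in each panel) and the 3 SD libraries (right); points are features, bars medians, and panels the 4 groups of the list. Structural cuticle proteins have medians of 6.95 and 7.24 in hybrids, against 5.15, 5.44 and 3.60 in SD, and single features spread widely within every library.

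None of the 13 genes that the SD mitochondrial genome encodes, inherited alike by both groups, passed in either direction. Their log2 differences ran between -0.09 and 1.19, with a median of 0.62 and 10 of 13 above 0. None had an unadjusted p under 0.05, voom on recovered reads called 0, and the smallest limma adjusted p was 0.507. The mitochondrial genes took 4.74% and 6.04% of summed RPKM in SDf x SCNm, against 4.58%, 2.62% and 7.48% in SD. SD replicate 2 held the lowest share and SD replicate 3 the highest, so the SD range enclosed both hybrids. The list's median was 0.11 without SD replicate 2, 0.39 without SDf x SCNm replicate 2, 0.92 without SD replicate 3 and 0.17 with quantile normalization.

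Among the mitochondrial genes, cytochrome c oxidase subunit 3 (mtDNA_cox3), a core subunit of complex IV, had 6664 and 8916 RPKM in SDf x SCNm, against 3844, 1796 and 5589 RPKM in SD. Its log2 difference was 1.19 (SE 0.58, limma adjusted p = 0.507), and the groups did not overlap. NADH dehydrogenase subunit 1 (mtDNA_nad1), of complex I, had 5324 and 5346 RPKM in SDf x SCNm, against 2848, 2589.8 and 4933 RPKM in SD (log2 difference 0.69). NADH dehydrogenase subunit 6 (mtDNA_nad6) was the third gene without overlap, at 4529 and 6181 RPKM in SDf x SCNm, against 3049.8, 3797 and 3546 RPKM in SD (log2 difference 0.62). The other 10 genes overlapped between the groups, and over all features 20.3% were without overlap on the high side. Cytochrome c oxidase subunit 1 (mtDNA_cox1) had 9324 and 13108 RPKM in SDf x SCNm, against 11768, 5686 and 21436 RPKM in SD (log2 difference -0.03, SE 0.69), so SD spread more widely than the groups differed. Cytochrome b (mtDNA_cytb), the mitochondrial subunit of complex III, had a log2 difference of -0.09 (SE 0.65) and nad2 (mtDNA_nad2) -0.08 (SE 0.71). ATP8 (mtDNA_ATP8), a short subunit of ATP synthase, was the most variable, at 949 and 5534 RPKM in SDf x SCNm, against 1058, 411 and 3769.6 RPKM in SD (log2 difference 0.96, SE 1.08). The log2 difference was 0.93 for mtDNA_cox2, 0.63 for mtDNA_ATP6 and for mtDNA_nad3, 0.61 for mtDNA_nd4L, 0.45 for mtDNA_nad4 and 0.24 for mtDNA_nad5.

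Nuclear subunits of the same chain also lay mostly above SD without passing. Of 42 subunits of complexes I to V, 34 lay above 0, with a median log2 difference of 0.44, which was 0.29 without SDf x SCNm replicate 1. Limma called 0 of them, 10 had an unadjusted p under 0.05 on the high side and 1 on the low side, and voom called 0. Of all features, 7.93% were higher and 2.71% lower at that p. In 21 the hybrids lay above every SD library and in 1 below, against 20.3% and 16.2% of all features. Complex I, which takes electrons from NADH, had a median of 0.53 over 18 subunits, 10 without overlap on the high side. Its beta subcomplex subunit 4 (Contig760cap_1) had 533 and 330.2 RPKM in SDf x SCNm, against 109, 174 and 138 RPKM in SD (log2 difference 1.60, SE 0.44, limma adjusted p = 0.231). Subunit 7 (Contig12185) had 383 and 284 RPKM in SDf x SCNm, against 71.6, 164 and 105 RPKM in SD (log2 difference 1.61, limma adjusted p = 0.246). In both the lower hybrid library lay above the highest SD library.

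Complex IV held members on both sides. Cytochrome c oxidase subunit 6c (Contig470) had 1664 and 1620.2 RPKM in SDf x SCNm, against 453, 654 and 456 RPKM in SD (log2 difference 1.68, SE 0.43, limma adjusted p = 0.188). Cytochrome c oxidase subunit 4 (Contig3271) had 330.3 and 377 RPKM in SDf x SCNm, against 613, 585 and 795 RPKM in SD (log2 difference -0.90, SE 0.34, limma adjusted p = 0.382). Neither overlapped between the groups, and the median over 8 nuclear subunits was 0.49.

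In complex II, the membrane anchor of succinate dehydrogenase (Contig715cap) had 189.7 and 162 RPKM in SDf x SCNm, against 87.2, 79.7 and 97.1 RPKM in SD (log2 difference 0.99, limma adjusted p = 0.453). The iron-sulfur subunit (Contig4987) overlapped, with a log2 difference of 0.13. In complex III, ubiquinol-cytochrome c reductase subunit 9 (Contig6768) had 777 and 662 RPKM in SDf x SCNm, against 304, 341 and 262 RPKM in SD (log2 difference 1.25, limma adjusted p = 0.275). The medians were 0.19 for 6 subunits of complex III and 0.17 for 8 of complex V, the ATP synthase, and both turned to the other side of 0 with quantile normalization, at -0.03 and -0.02, while staying above its median of all features. The complex III median was 0.29 without SD replicate 3 and the complex V median 0.30 without SDf x SCNm replicate 2.

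**Figure D3:**
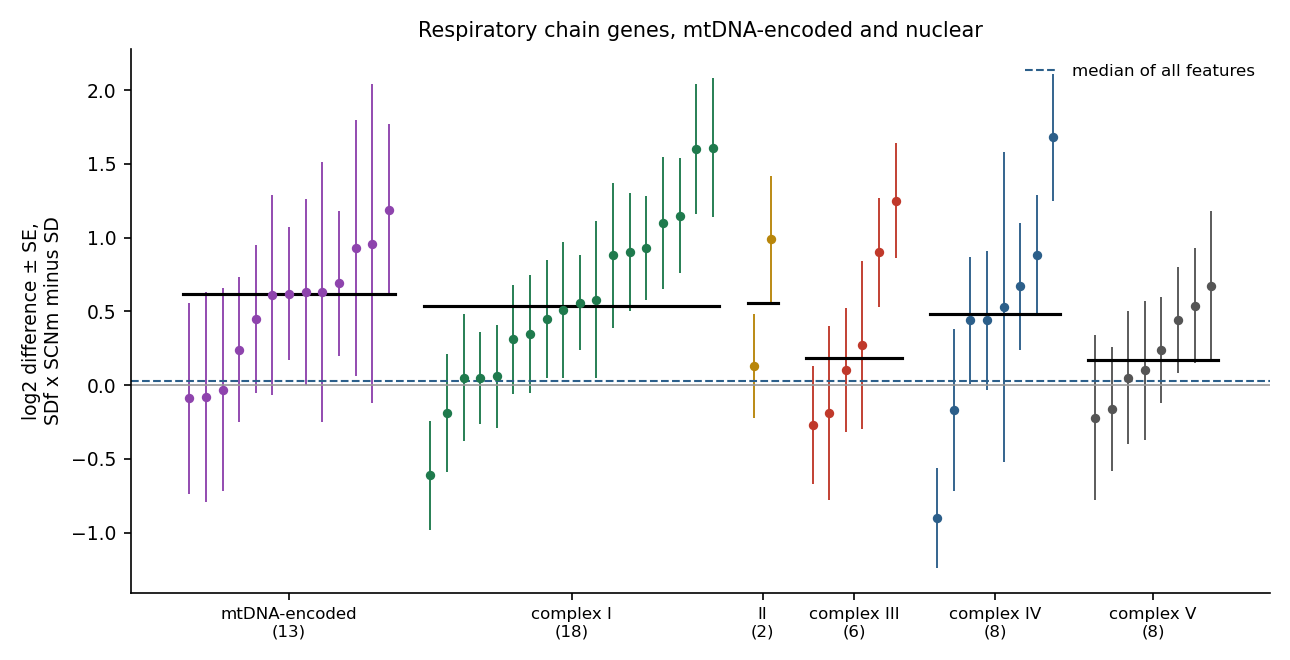
Log2 differences, SDf x SCNm minus SD, with standard errors from limma, of the 13 mtDNA-encoded genes and of 42 nuclear subunits of complexes I to V; black bars are medians and the dashed line is the median of all features, 0.03. Medians are 0.62 for mtDNA-encoded genes and 0.53 for complex I, 0.56 for complex II, 0.19 for complex III, 0.49 for complex IV and 0.17 for complex V, and subunit 4 of complex IV is lowest at -0.90.

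The machinery that reads and copies mitochondrial DNA split. Mitochondrial transcription factor A (TFAM), which packages mitochondrial DNA and starts its transcription, had 74.0 and 84.6 RPKM in SDf x SCNm, against 41.1, 29.0 and 54.1 RPKM in SD (log2 difference 0.96, SE 0.40, limma adjusted p = 0.424). The mitochondrial RNA polymerase (MTRPOL) had 22.3 and 24.8 RPKM in SDf x SCNm, against 36.6, 43.1 and 37.3 RPKM in SD (log2 difference -0.70, limma adjusted p = 0.555). DNA polymerase gamma (Contig7282), the replicase, had 21.6 and 24.4 RPKM in SDf x SCNm, against 38.7, 39.4 and 37.5 RPKM in SD (log2 difference -0.72, limma adjusted p = 0.495). Hybrids were above every SD library in TFAM and below every SD library in both polymerases. The list also held TFB1, with a log2 difference of -0.47, and the helicase twinkle (Contig5824), with -0.27, and none of the 5 passed.

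Mitochondrial ribosomal proteins, nuclear-encoded partners of mitochondrial ribosomal RNA, had a median log2 difference of 0.26 over 72 members, with 50 above 0. Of the 72, 26 were without overlap on the high side (20.3% over all features) and 3 on the low side (16.2%). The median was 0.16 without SDf x SCNm replicate 1. Protein mRpL20 (Contig68930) had 115 and 95.6 RPKM in SDf x SCNm, against 40.4, 40.9 and 43.7 RPKM in SD (log2 difference 1.31, limma adjusted p = 0.224). Mitochondrial import and carrier genes centred on -0.08 over 17 members, a median that took the other sign in 5 of 23 alternatives. It was -0.12 with median-of-ratios scaling and -0.07 with quantile normalization, the latter above that fit's median of all features, -0.09. The prolyl-tRNA synthetase of mitochondria (Contig13744) had a log2 difference of -0.18.

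Cytosolic ribosomal proteins, the protein part of the ribosome outside mitochondria, lay above SD almost throughout. Of 70 members, 66 lay above 0, with a median log2 difference of 0.63. In 35 both hybrids lay above every SD library, against 20.3% of all features. Limma called 0 of them, 15 had an unadjusted p under 0.05, all on the high side, and voom called 0. Of all features, 7.93% were higher at that p. Median levels of log2(RPKM + 1) were 11.26 and 10.64 in SDf x SCNm, against 10.17, 10.32 and 10.41 in SD, so SDf x SCNm replicate 1 stood furthest from the rest. RpL37a (Contig61723) had 5246 and 3535 RPKM in SDf x SCNm, against 951, 1573 and 1224 RPKM in SD (log2 difference 1.81, limma adjusted p = 0.211). RpS21 (Contig62709) had 4812 and 4605 RPKM in SDf x SCNm, against 991, 1635 and 1139 RPKM in SD (log2 difference 1.94, limma adjusted p = 0.211). The list median was 0.35 without SDf x SCNm replicate 1, 0.93 without SDf x SCNm replicate 2 and 0.22 with quantile normalization. Translation factors (46 members) and ribosome biogenesis genes (41 members), which act with or build the ribosome, had medians of -0.06 and -0.10.

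Protein breakdown lists lay at or below SD. Ubiquitin and ubiquitin-transfer genes, with 108 members, had a median log2 difference of -0.34, and 79 lay below 0. Only the ubiquitin contig given above passed, against the side of its list. Hybrids lay below every SD library in 47 members and above in 8, against 16.2% and 20.3% of all features. Median levels of log2(RPKM + 1) were 5.44 and 5.45 in SDf x SCNm, against 5.81, 5.77 and 5.92 in SD. The proteasome, which degrades tagged proteins, had a median of -0.06 over 31 members, a sign that turned in 5 of 23 alternatives. Its non-ATPase regulatory subunit 5-like (Contig2627) had 85.8 and 61.9 RPKM in SDf x SCNm, against 144, 113 and 139 RPKM in SD (log2 difference -0.84, limma adjusted p = 0.385).

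Heat shock proteins and chaperones, which fold and refold proteins, centred on -0.03 over 65 members. A total of 10 were without overlap on the high side and 13 on the low side, against 20.3% and 16.2% of all features. Heat shock factor (Contig993), the transcription factor of the heat response, had 134 and 151 RPKM in SDf x SCNm, against 233, 327 and 272 RPKM in SD (log2 difference -0.94, SE 0.33, limma adjusted p = 0.332). Heat shock protein 4 (Contig728_2) had 204 and 221 RPKM in SDf x SCNm, against 409, 481 and 378 RPKM in SD (log2 difference -0.98, limma adjusted p = 0.366). Both hybrids were below all SD libraries in these genes. In the HSP70 family of 13 members, SD replicate 2 stood apart within its group: median levels of log2(RPKM + 1) were 6.73 and 6.75 in SDf x SCNm, against 6.79, 8.33 and 6.96 in SD.

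Antioxidant and glutathione genes, which remove reactive oxygen and conjugate toxins, had a median log2 difference of 0.60 over 49 members. In 25 the hybrids lay above every SD library and in 1 below, against 20.3% and 16.2% of all features. At an unadjusted p under 0.05, 14 were higher, against 7.93% of all features, and none lower. Limma and voom each called 0. A glutathione S-transferase (Contig1767cap) had 314 and 444 RPKM in SDf x SCNm, against 65.7, 112 and 33.2 RPKM in SD (log2 difference 2.55, SE 0.48, limma adjusted p = 0.105). Superoxide dismutase (Contig12397), which converts superoxide to hydrogen peroxide, had 155 and 146 RPKM in SDf x SCNm, against 65.7, 35.1 and 34.2 RPKM in SD (log2 difference 1.79, limma adjusted p = 0.116). Glutathione S-transferases had a median of 0.84 over 21 members and thioredoxins -0.11 over 8. A group matched on names of peroxidases, peroxiredoxins and catalase had 0.82 over 11. It also took in the superoxide dismutase Contig12397, so it is not a group of peroxidases alone. Without SD replicate 3 and SCN replicate 2, Contig1767cap had an adjusted p of 0.0486 by limma. Cytochrome P450 genes, oxidases of detoxification and hormone synthesis, centred on 0.07 over 39 members, on -0.11 with quantile normalization and on -0.10 without SDf x SCNm replicate 2.

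Digestive peptidases had a median log2 difference of 0.56 over 63 members. Their median levels of log2(RPKM + 1) overlapped, at 5.53 and 5.61 in SDf x SCNm, against 5.77, 5.00 and 5.46 in SD. A total of 26 were without overlap on the high side and 2 on the low side, against 20.3% and 16.2% of all features. The astacin-type metalloproteinase nas-13-like (Contig2534) had 64.8 and 46.8 RPKM in SDf x SCNm, against 15.5, 17.5 and 18.0 RPKM in SD (log2 difference 1.64, limma adjusted p = 0.107), and SCN had 75.8 and 72.9 RPKM. Lectins and immune recognition genes, which bind microbial surfaces, had a median of 0.20 over 39 members, which became -0.06 with quantile normalization. A C-type lectin-like precursor (Contig11276) had 310.0 and 223 RPKM in SDf x SCNm, against 53.3, 57.2 and 32.3 RPKM in SD (log2 difference 2.48, limma adjusted p = 0.0661). Glycolysis and the TCA cycle centred on 0.02 over 46 members, with -0.11 under quantile normalization and -0.02 under median-of-ratios scaling. The median was 0.15 for lipid metabolism over 80 members, -0.02 for the V-type ATPase over 15, and 0.04 for transposable elements over 39, the last with -0.11 under quantile normalization and 0.00 under median-of-ratios scaling. A retrotransposon-like contig (Contig37734) had 14.1 and 15.6 RPKM in SDf x SCNm, against 3.41, 4.04 and 1.82 RPKM in SD (log2 difference 1.99, limma adjusted p = 0.115). It was covered by only 18, 8 and 0 reads in SD replicates 1, 2 and 3.

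The pools held whole animals of mixed stage, and markers of stage, sex and tissue also differed in their medians. Germline genes had a median log2 difference of -0.45 over 27 members, with 20 below 0. In 13 the groups did not overlap on the low side, against 16.2% of all features. Germline summed RPKM was 2526 and 2658 in SDf x SCNm, against 3587, 4128 and 3552 in SD. Tudor domain-containing protein 1 (Contig976cap), of germ-cell granules, had 21.5 and 17.4 RPKM in SDf x SCNm, against 38.0, 31.8 and 56.8 RPKM in SD (log2 difference -1.04, limma adjusted p = 0.339). Yolk genes, expressed in egg-producing females, had a median of 0.74 over 9 members, 6 above 0 and 3 below. Vitellogenin (Contig1764cap), the yolk precursor, had 10806 and 7147 RPKM in SDf x SCNm, against 3655, 4569.7 and 4262 RPKM in SD (log2 difference 1.08, SE 0.68, limma adjusted p = 0.62). The vitellogenin receptor (Contig1515cap), by which oocytes take up yolk, stood on the other side without overlap, at 298 and 343 RPKM in SDf x SCNm, against 444, 559 and 412 RPKM in SD (log2 difference -0.55, limma adjusted p = 0.632). Summed yolk RPKM was 29644 and 34793 in SDf x SCNm, against 15383, 34420.0 and 11858 in SD, so SD replicate 2 reached the hybrid level, and the yolk median was 0.27 without SD replicate 3. Cell division genes and histones had a median of -0.22 over 34 members, muscle -0.05 over 54 and the nervous system -0.10 over 78. Genes of sperm and cilia had 0.10 over 46, which became -0.17 with quantile normalization. The part of these shifts in the other lists was not tested.

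The genes of smallest p in each list that are not given above were without overlap and did not pass, with limma adjusted p from 0.14 to 0.692. Since p chose them, their sides are a description alone. On the high side in lists of metabolism and defence, the log2 difference was 2.27 for a C-type lectin (Contig94595), 1.96 for a secretory phospholipase A2 (Contig41004), 1.61 for a lipase (Contig21011), and 0.87 and 0.99 for a pair of cytochrome P450 contigs (Contig8986, Contig47065). Contig41004 and Contig47065 had 0 reads in SD replicate 3. A further nas-13 contig (Contig13292) had 9.03 and 10.3 RPKM in SDf x SCNm, against 3.18, 2.19 and 2.97 RPKM in SD. A pair of contigs of pyruvate dehydrogenase, the gate from glycolysis to the TCA cycle, were on the low side, at -0.81 (Contig4538) and -0.78 (Contig1870cap).

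In the mitochondrial lists, log2 differences were 0.90 for complex III subunit 8 (Contig8301), 0.54 and 0.67 for the epsilon and f subunits of ATP synthase (Contig1519cap_1, Contig3128), 0.76 for mRpS12 (Contig42828), and 0.96 and 0.83 for the small import chaperones tim10 and tim13 (Contig5576, Contig11969). All were on the high side, against an import list that centred below 0. In translation and breakdown, the log2 difference was 1.13 for translation initiation factor 2 subunit 2 (Contig1484) and -0.98 for a cap-binding-complex-dependent initiation factor (Contig84), 1.56 for the exosome component mtr3 (Contig24202) and -0.75 for bms1 (Contig201), both of ribosome biogenesis, and -1.02 for proteasome regulatory subunit 4 (Contig700cap). Subunits of the proton-pumping V-type ATPase had 0.70 (Contig7135_1) and 0.72 (Contig6125).

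Among the tissue and stage markers, tropomyosin (Contig5890) had 301 and 380.1 RPKM in SDf x SCNm, against 99.2, 110.0 and 123 RPKM in SD (log2 difference 1.61, limma adjusted p = 0.151). Troponin I (Contig1745cap), its partner on the thin filament of muscle, had 281 and 124 RPKM in SDf x SCNm, against 383, 393 and 636 RPKM in SD (log2 difference -1.29, limma adjusted p = 0.318). Muscle genes therefore stood on both sides of 0. The log2 difference was 1.31 for an acetylcholine receptor subunit (Contig5062), 1.52 for a glutamate receptor (Contig6440), 1.11 and 1.33 for the intraflagellar transport proteins 43 and 122 (Contig16857, Contig14540), 1.77 for cyclin D2 (Contig27150), 2.26 for a gag-pol contig of the transposable elements (Contig38137) and -1.26 for tudor domain-containing protein 7 (Contig6008). Contig38137 had 0 reads in SD replicate 3.

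**Figure D4:**
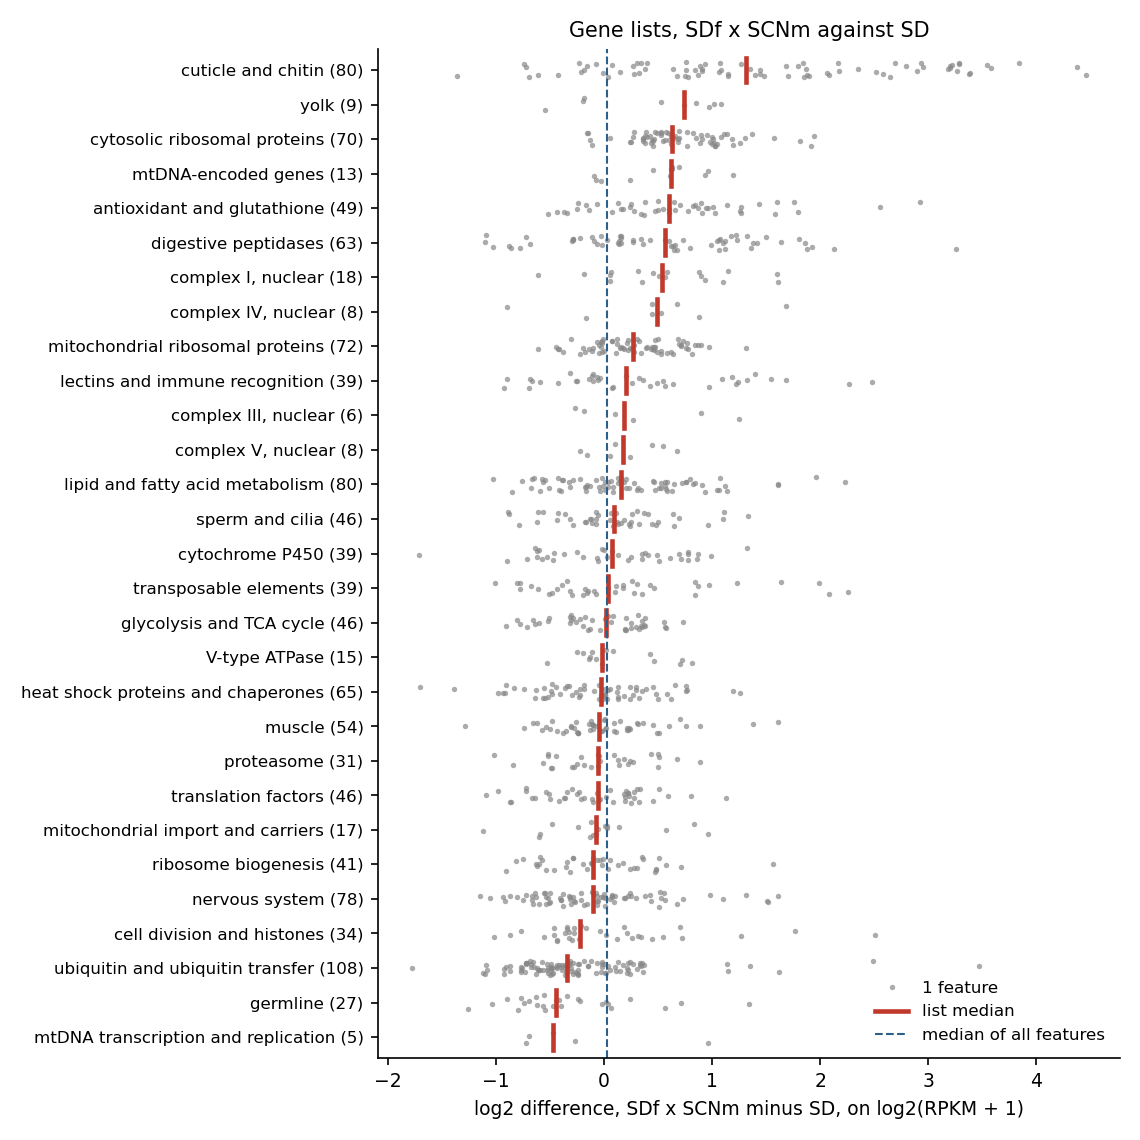
Log2 differences, SDf x SCNm minus SD, of every member of the lists with at least 5 members (number in brackets); grey points are features, red bars list medians and the dashed line the median of all features, 0.03. Cuticle and chitin genes have the highest median, 1.31, and the lists at the bottom are ubiquitin transfer at -0.34, the germline at -0.45 and mtDNA transcription and replication at -0.47.

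Contig length moved with the comparison. Split by length into 4 classes of like size, features had median log2 differences of 0.18, 0.20, 0.02 and -0.23, shortest class first, and 62.0%, 63.9%, 51.4% and 30.6% of their features lay above 0. In the class of longest contigs the median level of log2(RPKM + 1) was 4.74 and 4.93 in SDf x SCNm, against 5.13, 5.08 and 4.95 in SD. Some lists high in hybrids were of short contigs, with a median of 507 bases for cuticle and chitin, 456 for cytosolic ribosomal proteins and 468 for complex I. Yolk genes and digestive peptidases also had list medians above 0, with median lengths of 1164 and 1002 bases, above the 840 bases of the median feature. Median levels of log2(RPKM + 1) overlapped between the groups in both lists. Yolk levels were 10.58 and 11.23 in SDf x SCNm, against 11.06, 11.65 and 10.35 in SD. The lists with the lowest medians were of long contigs, with 1352 bases for ubiquitin transfer, 1206 for the germline and 2178 for mtDNA transcription and replication. The part of length in the list medians was not tested.

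The opposite cross was set beside these changes to ask whether the step from the maternal population to the hybrid differed between crosses. SCNf x SDm minus SCN had a median of 0.27 over all features, and limma called 2 features higher (0.0145%). The difference between the crosses' changes was called for 0 features by limma, with 705 at an unadjusted p under 0.05 (5.12%) and 5 called by voom. Leaving out SCN replicate 1 raised its count to 63, leaving out SD replicate 2 to 2 and leaving out SCN replicate 2 to 1. By smallest p, the named features that came nearest were Contig4724, with a change of 4.14 from SD in SDf x SCNm and of -0.01 from SCN in SCNf x SDm (difference 4.15, limma adjusted p = 0.065), and the ubiquitin contig Contig1785, with changes of 2.49 in SDf x SCNm and -1.09 in SCNf x SDm (difference 3.58, limma adjusted p = 0.0812). A cytochrome P450 (Contig5704) and a chymotrypsin-like protein (Contig1226cap), which followed, each had an adjusted p of 0.3 by limma. The cuticle list had median changes of 1.31 and 1.35 in SDf x SCNm and SCNf x SDm, yolk 0.74 and 0.61, and antioxidant genes 0.60 and 0.34. Cytosolic ribosomal proteins had 0.63 and 0.19, mtDNA-encoded genes 0.62 and 0.05, and ubiquitin transfer -0.34 and 0.06. The SCNf x SDm values rested on single SCN libraries. Without SCN replicate 2 the median change in SCNf x SDm was -0.01 over all features, 0.53 for cuticle, -0.35 for yolk, 0.38 for antioxidant genes, 0.51 for cytosolic ribosomal proteins, 0.21 for mtDNA-encoded genes and -0.05 for ubiquitin transfer. Without SCN replicate 1 the same medians were 0.58, 2.34, 1.91, 0.23, -0.27, -0.07 and 0.04. Leaving out single libraries was planned, but giving these fits for the opposite cross was chosen after seeing the data. The median level of yolk genes, as log2(RPKM + 1), was 11.33 and 10.37 in SCNf x SDm, against 11.54 and 8.64 in SCN replicates 1 and 2, so SCN replicate 2 was the low library, as it was for cuticle. The differences of list medians between crosses were not tested.

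**Figure D5:**
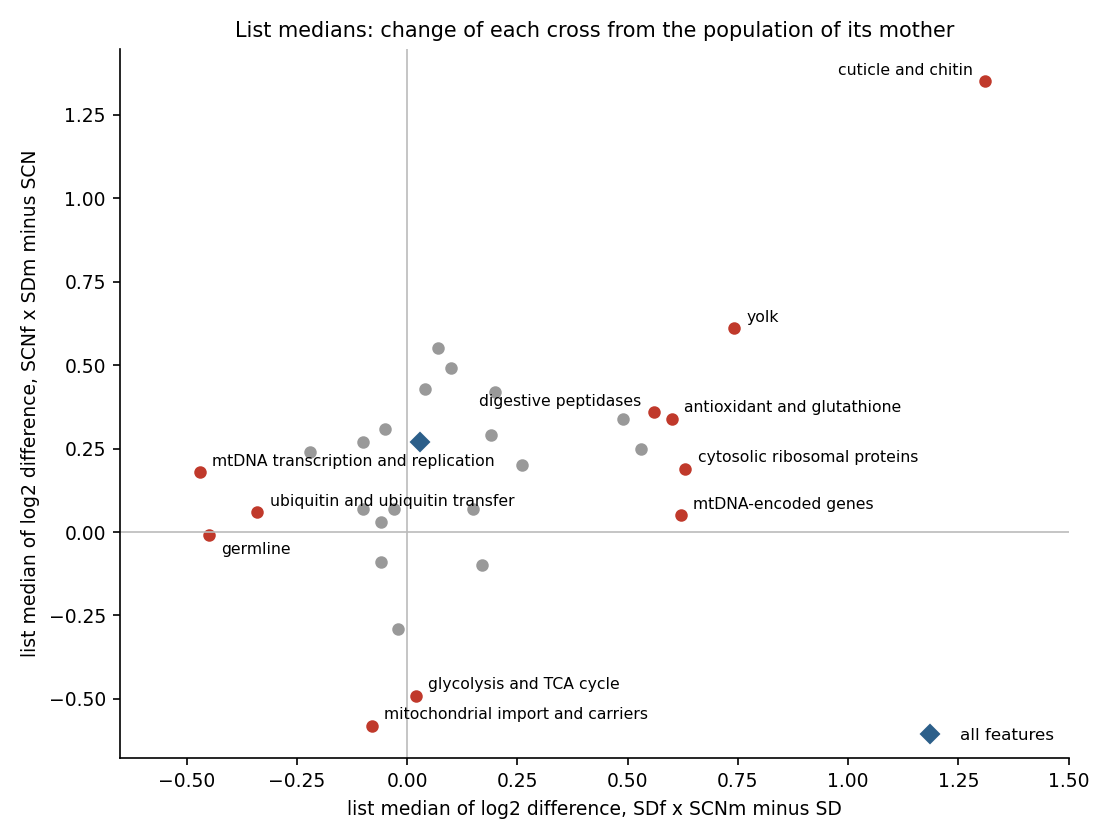
Median log2 difference of each list in SDf x SCNm minus SD (horizontal axis) and in SCNf x SDm minus SCN (vertical axis); each circle is a list with at least 5 members, with red ones labelled, and the diamond is the median of all features at 0.03 and 0.27. Cuticle and chitin genes are at 1.31 and 1.35, above both medians of all features, and mtDNA-encoded genes at 0.62 and 0.05. Without SCN replicate 2 the vertical values are 0.53 for cuticle and chitin, 0.21 for mtDNA-encoded genes and -0.01 for all features.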

How the data were processed

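The authors deposited 1 table of RPKM per library, per the file headers, with an SD contig, an SCN contig and a protein name for each feature. The sources used here name no aligner, counting method, filter or assembly, and 0 identifiers matched the gene table at hand, so names come from the deposited tables. Low RPKM values fell on steps, which gave whole reads (99.9% of values within 0.05 read), contig lengths and an added constant of 1.12 to 18.4 reads per library. These fed the depths, read numbers and contig lengths given above and some alternatives, and not the main fit.

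Differences were fitted with limma 3.58.1 (R 4.3.3, mean-variance trend) on log2(RPKM + 1), which understates changes of low features, over all 9 libraries with 4 group means (5 residual degrees of freedom) and Benjamini-Hochberg adjustment over 13758 features. A filter at a mean RPKM of 1 removed 0 features. Simulated data with known changes called 5 unchanged features. Lists were matched on words in protein names, so a few members belong elsewhere. Comparison, members and lists were chosen with earlier results of these data known. Genes named are the called ones with an informative name, those of smallest p where fewer than 5 qualified, all mtDNA-encoded genes, the 2 of smallest p in each list and unnamed extremes; others are said to be chosen later or belong to a list given whole. No sequences or coordinates are given.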

Additional observations from a re-analysis of the deposited data

How the results depend on the processing

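The count of features past the threshold, 16 as reported, was 33 with quantile normalization, 188 without both run 3 libraries, 9 by limma without the trend, 8 with the added constant taken off, 49 by voom on recovered reads and 102 in SDf x SCNm and SD alone without SD replicate 3. The last pair was chosen after seeing the data. Leaving out 1 library at a time gave 1 to 155. With the replicate number of the titles as a replicate block it was 3, and same-numbered hybrid and SD libraries had deviations correlated at 0.11 and 0.34, with SDf x SCNm replicate 1 closer to SD replicate 3 (0.27). Deviations from the mean of 2 hybrid libraries are exact opposites. The correlations of replicates 1 and 2 therefore mirror each other and are not separate evidence on pairing. The labels do not say that a number marks a shared batch. The other 7 alternatives gave 11 to 24. The difference between the crosses' changes, called for 0 features, was called for 3 with quantile normalization, 2 with median-of-ratios scaling, 1 without both run 3 libraries, 4 with reads thinned to 1 depth, 5 by voom and 0 to 63 with 1 library left out. The median of all features moved to -0.09 with quantile normalization. The cause of these shifts was not tested. Of 1862 checks on single features in 23 alternatives, 1764 kept their side of the threshold, 52 lost significance and 46 gained it. Features near 0 that did not pass could change sign. Without both run 3 libraries all 13 mtDNA-encoded genes lay above 0, against 10 in the main fit. All 52 losses fell among the 161 checks on the 7 features in the text that passed the threshold. Count models other than voom were planned and not run, because RPKM is not a count. Depth limits low features, above all in SD replicate 3 and SCN replicate 2.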

Other observations

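A few genes differed more between replicates of 1 group than between the groups, and all were picked after their values were seen. A trio of chitinase contigs, whose products digest the old cuticle at moulting, was highest in SDf x SCNm replicate 1. Contig832cap had 1675 and 59.6 RPKM in SDf x SCNm, against 41.4, 14.9 and 50.9 RPKM in SD (log2 difference 3.28, SE 1.15, limma adjusted p = 0.339). Contig834cap had 1149 and 58.2 RPKM in SDf x SCNm, against 56.5, 14.7 and 58.3 RPKM in SD, and Contig12525 had 1658 and 67.0 RPKM in SDf x SCNm, against 38.4, 18.2 and 64.1 RPKM in SD. The same 3 contigs had 383, 321 and 332 RPKM in SCN replicate 2, the second highest library for each, and near-identical copies may share reads.

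In 3 other genes SD replicate 2 was the highest library of its group. Heat shock protein 70 (Contig4361_2) had 189.6 and 73.0 RPKM in SDf x SCNm, against 42.1, 622 and 34.5 RPKM in SD. Nanos homolog 2 (Contig4701), a translational repressor of germ cells, had 70.4 and 83.8 RPKM in SDf x SCNm, against 80.3, 319 and 84.3 RPKM in SD. Vitellogenin 2 (Contig1760cap) had 4611 and 11498 RPKM in SDf x SCNm, against 2692, 14118 and 1346 RPKM in SD. In heat shock protein 70 and Vitellogenin 2 the other SD replicates lay below both hybrids, and in Nanos homolog 2 they lay between or just above them.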
